A study of Mus musculus with 8 samples.

Results

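Complement component genes were examined in mouse bone marrow mesenchymal stem cells (MSCs) carrying active RhoA. The 9 genes were Cfb, C3, C4b, C1s, C1ra, Cfd, Serping1, Cd55 and Cd59a. Cfb was selected because it fell in these data, and the other 8 were chosen by function as components and regulators of the same system. Of the 16593 genes with a named probe on the array, 7 were members, with 8 of the array's 25697 probes. C1s appears in the current mouse annotation as C1s1 and had 2 probes. C3 and Cfd had no named probe and were not analysed here. Of the 9 genes, 4 (Cfb, C4b, C1s1 and Serping1) were detected on all 8 arrays and entered the comparison, and the probes of C1ra, Cd55 and Cd59a lay near background.

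Complement is a cascade of plasma and surface proteins that marks targets for removal and lysis. The classical pathway starts when C1q binds and its partner proteases C1r and C1s cleave C4 and C2, whereas the alternative pathway forms its convertase from C3b and factor B after cleavage by factor D. C1 inhibitor (Serping1) blocks C1r and C1s, CD55 speeds the decay of convertases on cell surfaces, and CD59 blocks the terminal lytic pore. The liver makes most circulating complement, but fibroblasts and other stromal cells also make several components, and inflammatory cytokines are known inducers of factor B and C4.

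The 2 groups compared had 4 arrays each. EV cells were purchased mouse bone marrow MSCs transfected with empty vector. L63RhoA cells were the same MSCs transfected with a Myc-tagged, constitutively active RhoA. All cells were at passage 6. The sample records give 48 h after transfection, whereas the design text gives harvest after 3 days and describes 4 independent experiments. Transfection is transient, so RNA came from transfected and untransfected cells together, and the share of transfected cells was not given in the sources used here. Fewer cells of a type and less RNA per cell cannot be told apart in these bulk samples. Each sample was hybridised to an Illumina MouseRef-8 v2.0 BeadChip, a bead array that reports a signal intensity and a detection p-value for each probe.

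Between 12546 and 12928 probes were detected (detection p under 0.05) on an EV array. On L63RhoA replicate 1 there were 12981, and on L63RhoA replicates 2 to 4 between 11925 and 12119. The mean signal was between 274 and 377 on the EV arrays and between 320.1 and 350 on the L63RhoA arrays. The array's Rhoa probe was detected on no array and does not check the transfection. Acta2 (smooth muscle actin) and Ccn2 (connective tissue growth factor) were higher in L63RhoA by 1.18 (adjusted p = 0.0058) and 0.50 (adjusted p = 0.020) on the log2 scale by limma. The authors reported both genes as changed on these same arrays, so they are no independent check of the transfection. Of the MSC markers, 8 of 10 with a probe were detected well enough to test, against 1 of 9 macrophage and blood markers, which was Cd14. The MSC markers Ly6a, Lepr and Thy1 were not tested, as 1 had no probe and 2 were detected on no array. Of the endothelial markers 2 of 4 were tested, and of the adipocyte markers 1 of 6. The other 8 macrophage and blood markers, the 3 C1q chains among them, were detected on no array. One pattern of spread inside the groups held 48.2% of the within-group variance, with L63RhoA replicate 1 (score -17.4) and EV replicate 3 (score 17.6) at its ends.

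The alternative pathway protease factor B (Cfb) was lower in L63RhoA, the difference on which it was selected. Its log2 intensity after background correction and quantile normalisation was 7.22, 7.18, 7.70 and 7.55 on EV replicates 1 to 4, and 6.36, 6.55, 6.27 and 6.34 on L63RhoA replicates 1 to 4. All 4 L63RhoA arrays were below all 4 EV arrays, and L63RhoA varied less among themselves (SD 0.12, n = 4) than EV (SD 0.26, n = 4). The mean was 7.41 in EV and 6.38 in L63RhoA, a difference of -1.03 ± 0.13 (SE) with a 95% confidence interval from -1.32 to -0.75, or 2.05-fold lower in L63RhoA. This contrast is the one on which Cfb was selected, so the values are a description and no test is attached to them. Groups that did not overlap were found for 9.93% of the 8360 genes tested. The deposited signal of the Cfb probe, before any normalisation in the present work, lay between 183 and 323 on the EV arrays and between 152 and 179 on the L63RhoA arrays, against a lowest signal of 91.1 to 106 for any detected probe on the 8 arrays. Without subtraction of this background the difference was smaller, at -0.63 on the log2 scale.

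The size of the Cfb difference did not rest on a single array. Leaving out each array in turn gave differences from -1.12 to -0.93. The value nearest 0 came without EV replicate 3, the array with the highest Cfb signal and the highest mean signal over all probes. Other filters, tests and ways to join probes leave the difference of a gene with 1 probe as it is.

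C4b, which encodes the thioester protein C4 that the classical pathway protease C1s cleaves, stood on the opposite side of EV from Cfb. Its log2 intensity was 5.18, 4.996, 5.69 and 5.31 on EV replicates 1 to 4, and 5.47, 5.85, 6.42 and 6.21 on L63RhoA replicates 1 to 4. Of the 4 L63RhoA arrays, 3 were above every EV array, and L63RhoA replicate 1 lay below EV replicate 3, so the groups overlapped. The mean was 5.29 ± 0.29 (SD, n = 4) in EV and 5.98 ± 0.42 (SD, n = 4) in L63RhoA, a difference of 0.69 ± 0.21 (SE) with a 95% confidence interval from 0.24 to 1.15 and a fold of 1.62. It did not pass at an adjusted p under 0.05 (limma, adjusted p = 0.11), a level that 0.706% of all genes reached. At the looser false discovery rate of 0.20 named in the methods, C4b passed by limma, as did 23.6% of genes, but not by the unmoderated 2-group test (0.24 after adjustment over all genes). The authors' gene list also required a fold change above 2, which C4b did not reach.

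The C4b result turned on the 2 arrays at the ends of the within-group pattern. Without EV replicate 3 the difference was 0.81 (limma, adjusted p = 0.036), and without L63RhoA replicate 1 it was 0.86 (limma, adjusted p = 0.021). Weighting arrays by their spread also gave 0.86 (limma, adjusted p = 0.012). These settings raised calls in general, with 11.2%, 15.2% and 25.1% of all genes passing in the same order. Over all alternatives the adjusted p ran from 0.012 to 0.28 by limma, and the difference was positive in each, with a low of 0.28 on the authors' processed values. Deviations of C4b from its group mean had a Pearson correlation of 0.76 with the score of the within-group pattern over the 8 arrays, against 0.37 for Cfb. These deviations come from the same 8 arrays as the score, and the part of the pattern in the C4b result was not tested. The lowest signal of any detected probe was 91.1 to 103 on the EV arrays and 101 to 106 on the L63RhoA arrays. The C4b signal of 98.7 to 136 in EV and 126 to 170 in L63RhoA was close to this detection floor. The probe of its near-identical copy C4a was detected on no array, and whether the C4b probe also binds C4a RNA was not tested. The same holds for the pairs C1s1 and C1s2, C1ra and C1rb, Cd55 and Cd55b, and Cd59a and Cd59b.

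**Figure D1:**
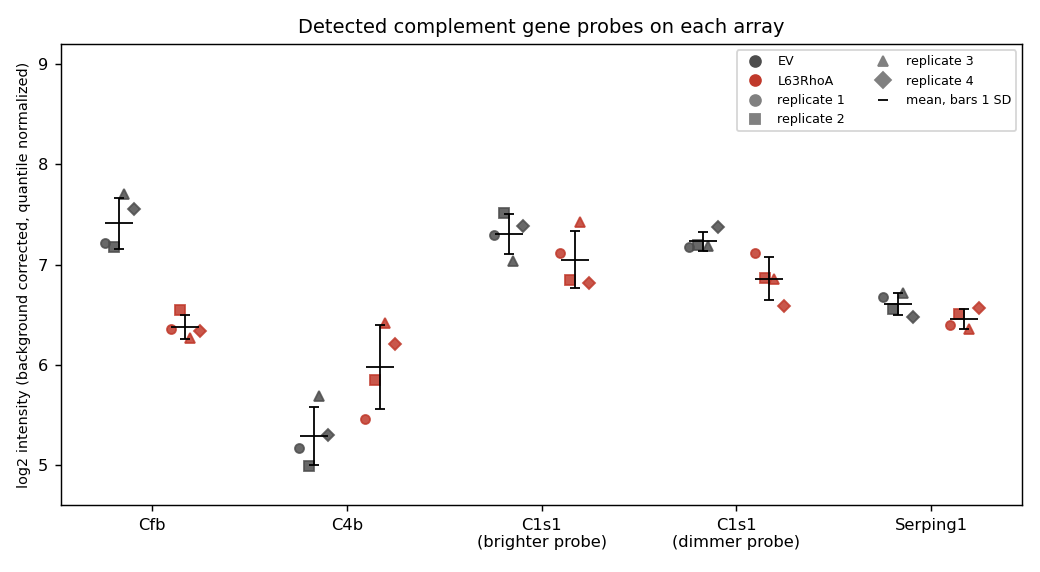
Log2 intensity after background correction and quantile normalisation of the 5 member probes detected on all arrays, by gene, with EV in grey, L63RhoA in red, a symbol for each replicate number, and the mean with bars of 1 SD (n = 4 per group). The 4 L63RhoA arrays are below the 4 EV arrays for Cfb, whereas the groups overlap for C4b, for the brighter C1s1 probe and for Serping1. Levels of different probes cannot be compared with each other.

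C1s1 encodes the protease that cleaves C4 and C2 in the classical pathway. Its brighter probe had log2 intensities of 7.30, 7.51, 7.04 and 7.38 on EV replicates 1 to 4 and 7.12, 6.84, 7.42 and 6.81 on L63RhoA replicates 1 to 4. L63RhoA replicate 3 was above 3 of the EV arrays, and the groups overlapped. The difference was -0.26 ± 0.15 (SE), with a 95% confidence interval from -0.59 to 0.07 that included 0 (limma, adjusted p = 0.30).

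The dimmer C1s1 probe read 7.18, 7.20, 7.19 and 7.38 in EV and 7.12, 6.87, 6.86 and 6.59 in L63RhoA. Every L63RhoA array was below every EV array on this probe, a separation in that direction shown by 4.85% of the 12349 probes kept. The difference was -0.37 ± 0.12 (SE) and did not pass over all probes (limma, adjusted p = 0.13), a test that 0.64% of probes passed. The 2 probes therefore had the same sign and differed in whether the groups overlapped, with the clearest disagreement on L63RhoA replicate 3. Probes of 1 gene read the same RNA and are not replicates.

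Serping1 encodes C1 inhibitor, the plasma serpin that inactivates C1r and C1s. Its log2 intensity was 6.67, 6.56, 6.71 and 6.48 on EV replicates 1 to 4 and 6.40, 6.51, 6.35 and 6.57 on L63RhoA replicates 1 to 4. The groups overlapped and both were tight, with an SD of 0.11 in EV and 0.10 in L63RhoA (n = 4 each). The difference of -0.15 ± 0.09 (SE) had a 95% confidence interval from -0.35 to 0.06 (limma, adjusted p = 0.34).

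Of the 3 tested members other than Cfb, 0 passed at an adjusted p under 0.05 by limma, beside 0.706% of all genes. At an unadjusted p under 0.05 there was 1 (C4b), by limma and by the unmoderated 2-group test named in the methods' general statistics. At that level lay 24.4% of all genes by limma and 1615 of 8360 by the unmoderated test. C1s1 was counted by its brighter probe. Its dimmer probe had an unadjusted p of 0.0086 in the limma fit over probes.

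**Figure D2:**
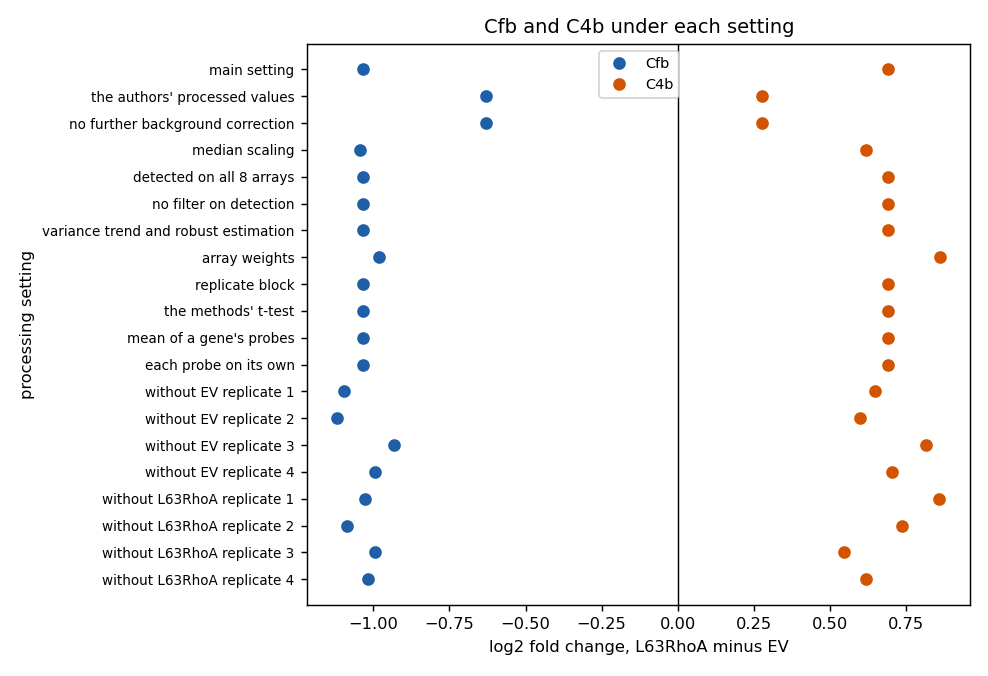
Difference in log2 intensity between L63RhoA and EV (horizontal axis, log2 scale) for Cfb in blue and C4b in orange under the main setting, 11 other processing settings and with each array left out (rows). Cfb stays between -1.12 and -0.63 and C4b between 0.28 and 0.86.

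C1ra encodes the protease that activates C1s, and CD55 and CD59a are surface regulators that protect a cell from its own complement. The C1ra probe was detected on no array, with deposited signals from 84.6 to 93.6 in EV and from 92.5 to 103 in L63RhoA. The Cd55 probe was detected on 1 array (EV replicate 2), with signals from 88.4 to 100.2 over all arrays. The Cd59a probe was detected on EV replicate 4 and L63RhoA replicate 4, with signals from 87.0 to 104. These ranges sit on the lowest signals at which any probe was detected, so no fold is given, and a difference between groups was not detectable with these probes. Absence of the RNA does not follow from a probe that is not above background.

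**Figure D3:**
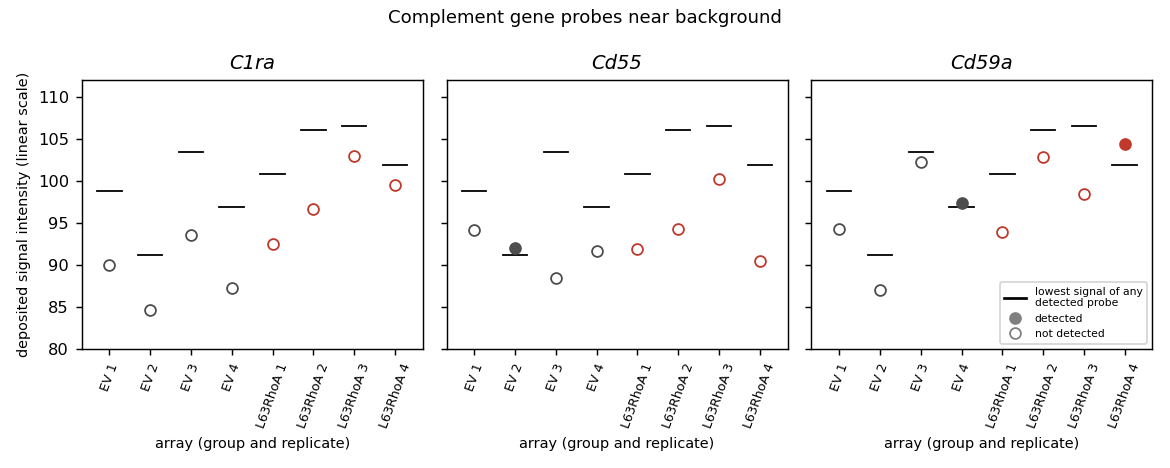
Deposited signal (vertical axis, linear scale starting at 80) of the C1ra, Cd55 and Cd59a probes on each array (horizontal axis), with filled circles where the probe was detected and a black line at the lowest signal of any detected probe on that array. C1ra is below the line on all 8 arrays, Cd55 above it on 1 and Cd59a on 2.

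C1s1 and C1ra lie near each other on chromosome 6 and encode partner proteases of 1 complex. Their promoter windows, from 250 bases before to 50 bases after the start of the gene, are shown because they are the one neighbouring pair of partner genes among the members with a window at hand (RefSeq, build GRCm38.p6). C1s1 is on the minus strand at chr6:124542310-124542609 and C1ra on the plus strand at chr6:124512371-124512670. Capitals mark a match to the GAS motif (TTCNNNGAA), which STAT factors are known to bind.
C1s1: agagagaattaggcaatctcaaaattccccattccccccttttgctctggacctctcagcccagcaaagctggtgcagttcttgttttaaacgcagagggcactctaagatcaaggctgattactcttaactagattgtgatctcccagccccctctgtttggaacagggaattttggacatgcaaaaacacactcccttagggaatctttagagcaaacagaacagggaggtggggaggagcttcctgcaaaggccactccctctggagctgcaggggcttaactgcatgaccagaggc
C1ra: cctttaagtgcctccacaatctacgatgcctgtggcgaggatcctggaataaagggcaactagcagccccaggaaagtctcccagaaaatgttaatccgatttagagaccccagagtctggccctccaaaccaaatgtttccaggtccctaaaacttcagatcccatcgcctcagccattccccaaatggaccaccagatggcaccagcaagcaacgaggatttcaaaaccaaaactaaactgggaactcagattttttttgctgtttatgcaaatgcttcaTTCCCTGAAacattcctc
The C1ra window held 1 GAS match and the C1s1 window none, and 8.3% of 32851 mouse promoters of this length held at least 1. Searches on both strands for the NF-kB consensus (in 8.46% of promoters), the core of the interferon response element (TTTC, any 2 bases, TTTC, in 3.44%) and the CArG box bound by serum response factor (in 1.63%) found no match in either window. Motif matches are descriptions of letters and were not linked to any reading on the arrays. RefSeq windows were matched for 6 of the 9 genes. Those not matched were Cfb, C4b and Serping1.

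The rest of the complement system was read from a list of 47 other genes, of which 41 had a probe and 12 were detected well enough to test. Of these 12, 0 passed at an adjusted p under 0.05 (limma), beside 0.706% of all genes. At an unadjusted p under 0.05 there were 3 by limma, beside 24.4% of all genes. By the unmoderated test there were 2, beside 1615 of all 8360 genes. The median difference of the 12 was 0.03, near the 0.01 of all genes, and single genes ran from -0.33 to 0.43 on the log2 scale. The groups overlapped for all 12. No tested gene of this list had a difference as far from 0 as C4b. Cfb was selected on this contrast and is not ranked with them.

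By role, 4 of the 10 proteases that cleave components were tested: Cfb and C1s1 above, and C1rl (0.08) and C1s2 (0.00, limma adjusted p = 0.99), a close copy of C1s1. Of the 3 thioester proteins, C4b alone was tested.

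The terminal pathway, which builds the lytic pore, had 3 of 7 genes tested. C8b, which encodes the beta chain of C8, had a mean log2 intensity of 4.72 in EV and 5.15 in L63RhoA, a difference of 0.43 ± 0.14 (SE, limma adjusted p = 0.12). C8g, for the gamma chain, had means of 5.54 and 5.91, a difference of 0.37 ± 0.15 (SE, limma adjusted p = 0.17). Both passed when L63RhoA replicate 1 was left out, at 0.52 (limma, adjusted p = 0.028) for C8b and 0.50 (limma, adjusted p = 0.029) for C8g, in a fit where 15.2% of all genes passed. On the authors' values the differences were 0.13 and 0.15. C9, the pore-forming subunit, differed by 0.06 and was detected on 4 arrays. The 3 genes are dim, with signals of at most 158, and C8a was detected on no array.

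Of the pattern recognition proteins that start the cascade, 2 of 10 were tested. Fcna, a ficolin that binds sugars on microbes, differed by -0.33 ± 0.12 (SE, limma adjusted p = 0.15), and Colec12, a scavenger receptor of the collectin family, by -0.30 ± 0.15 (SE, limma adjusted p = 0.23). On the authors' values these were -0.12 and -0.09, and the mean of the Colec12 probes gave -0.16. The Colec12 probe was detected on 5 arrays. Its log2 intensities of 4.52 to 5.31 in EV and 4.48 to 4.68 in L63RhoA reached down to background level. The 3 chains of C1q were detected on no array, and C2, the serine protease most like factor B, on 1.

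No tested regulator passed at an adjusted p under 0.05 by limma, beside 0.706% of all genes. Of the membrane regulators, 3 of 9 were tested: Cr1l (Crry, the main convertase regulator on mouse cells) differed by 0.15 (limma, adjusted p = 0.50), Susd4 by -0.09 (limma, adjusted p = 0.66) and Thbd (thrombomodulin) by -0.06 (limma, adjusted p = 0.80). Of the soluble regulators, 3 of 9 were tested, and besides Serping1 these were Clu (clusterin, 0.27, limma adjusted p = 0.26) and C1qbp (a binding protein of C1q, -0.22, limma adjusted p = 0.24). None of the 8 receptors for complement fragments was tested, and 6 of them were detected on no array.

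**Figure D4:**
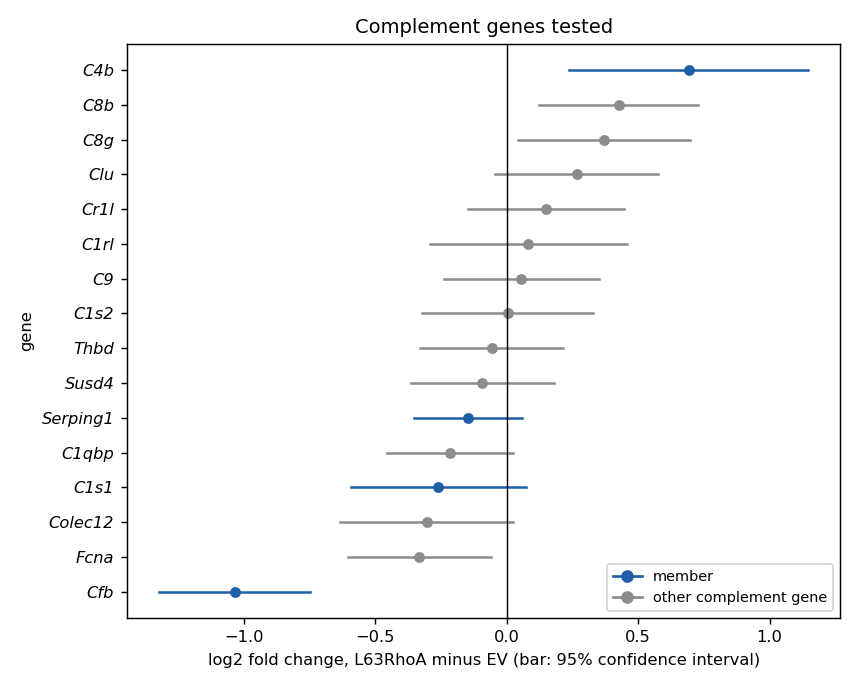
Difference in log2 intensity between L63RhoA and EV (horizontal axis) with its 95% confidence interval for the 16 complement genes tested (vertical axis), members in blue and others in grey. Cfb at -1.03 and C4b at 0.69 are at the ends. Cfb was selected on this contrast and its interval is no test.

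The genes whose values followed Cfb most closely over the 8 arrays were Nptn (Pearson r = 0.960), Cxcl16 (0.958), Emp1 (0.956), H2ac18 (0.949) and Sprr2d (0.946). Each was lower on all 4 L63RhoA arrays than on any EV array. The choice by likeness to Cfb over both groups builds this separation in, so it is a description over 8 arrays with no test. Among the members the correlation with Cfb was 0.66 for Serping1, 0.33 for C1s1 (brighter probe) and -0.63 for C4b. The difference in means was -1.28 for Sprr2d, a small proline-rich protein of epithelial barriers, and -0.46 for the chemokine Cxcl16.

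Once the group means were removed, the correlations between members had both signs, and each negative value involved C1s1. C1s1 was read by its brighter probe alone. Its dimmer probe, which disagreed on L63RhoA replicate 3, was not correlated with the other members. The correlation of deviations over the 8 arrays was 0.32 for Cfb and C4b, -0.62 for Cfb and C1s1, 0.23 for Cfb and Serping1, -0.12 for C4b and C1s1, 0.22 for C4b and Serping1, and -0.85 for C1s1 and Serping1. Correlations of the deviations with the score of the within-group pattern likewise differed in sign, at 0.73 for Serping1 and -0.54 for C1s1. These are descriptions over 8 arrays that share scanning and normalisation.

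Genes that carry or report the cytokine signals known to induce factor B and C4 were read as a further list. All 14 of the regulators with a probe were tested, and 0 passed by limma (0.706% of all genes did), with 5 at an unadjusted p under 0.05 (24.4% of all genes). Irf1, the interferon-responsive transcription factor, was 0.35 ± 0.09 (SE) higher in mean log2 intensity in L63RhoA (limma, adjusted p = 0.088). Groups did not overlap for 2 of the 14, Irf1 and Socs3, both higher in L63RhoA, beside 9.93% of all genes. Irf1 passed under 6 of 19 alternatives, such as the authors' values (0.34, limma adjusted p = 0.033), whereas the mean of its probes gave 0.13 (limma, adjusted p = 0.38). On the authors' values 1.39% of all genes passed. Array weights and the omission of EV replicate 3 or L63RhoA replicate 1 were also among the 6. Socs3, a feedback inhibitor of cytokine receptors, differed by 0.38 (limma, adjusted p = 0.14), Rela, an NF-kB subunit, by 0.39 (limma, adjusted p = 0.15) and Tnfrsf1a, the main receptor for TNF, by -0.59 (limma, adjusted p = 0.18). Each of these 3 passed under 2 or 3 alternatives, all of them array weights or the omission of EV replicate 3 or L63RhoA replicate 1. In these settings 25.1%, 11.2% and 15.2% of all genes passed, in the same order. The 4 genes had both signs.

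Of the 11 acute phase genes induced by such cytokines, 9 were tested and 0 passed by limma (0.706% of all genes did), with 2 at an unadjusted p under 0.05 (24.4% of all genes). Saa3, an acute phase apolipoprotein, differed by -0.30 (limma, adjusted p = 0.11) and passed under 5 of 19 alternatives (lowest adjusted p = 0.021 by limma). The lowest came with array weights, where 25.1% of all genes passed. Saa3 also passed on the authors' values, where 1.39% of all genes did. The chemokine Ccl2 differed by -0.33 (limma, adjusted p = 0.17). Lcn2 (lipocalin, -0.17, limma adjusted p = 0.23) and Ptx3 (a pentraxin that binds C1q, 0.16, limma adjusted p = 0.28) followed. Groups did not overlap for 2 of the 9, Saa3 and Lcn2, both lower in L63RhoA, beside 9.93% of all genes. Differences ran from -0.59 to 0.39 over the tested regulators and from -0.33 to 0.24 over the tested acute phase genes.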

How the data were processed

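Mouse MSC expression was measured on 8 Illumina MouseRef-8 v2.0 arrays (4 EV, 4 L63RhoA), grouped by the sample records. The records do not tie a sample to its own culture, so the spread behind each p-value may be partly technical. The authors' methods state that signals were extracted with GenomeStudio after background correction, transformed and quantile normalised in lumi, and tested in R/maanova by permutation with a false discovery rate of 20%. No tool version was stated.

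The deposited signal intensities were on a linear scale, and their lowest value was 75.2, so a background level remained in them. The deposited detection p-values were given for each probe and array. The authors' processed table was on the log2 scale and equalled, for 100% of values within 0.01, the log2 of the quantile normalised intensities, with no variance stabilisation visible and a median of 6.64 in each column. The files name probes by identifier only, and genes were taken from the platform annotation, with 23978 of 25697 probes given 1 symbol, 0 several and 1719 none. Symbols were updated through RefSeq (GRCm38.p6) for 23962 probes and kept for 16.

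Intensities were corrected and quantile normalised with neqc (limma 3.58.1, R 4.3.3, offset 16). The 12349 probes detected (p under 0.05) on 4 or more arrays were kept, and each of 8360 genes was represented by its brightest probe. Groups were compared with limma (lmFit and eBayes, two-sided) with Benjamini-Hochberg adjustment over all genes, since maanova could not be run. The fit was run on simulated data with independent noise for each gene and array. The simulation lacked the pattern of spread shared inside the groups, so it does not check the calls under that pattern. Named genes were the members, the 4 lowest p of each list where that many were tested, the 5 genes most correlated with Cfb, and Rhoa, Acta2 and Ccn2. Further complement genes were named to complete each role. The members and lists were chosen with earlier results of these data known. The neighbours on chromosome 17 and the promoter motifs were added after results were seen. Alternatives were the authors' values, a fit on quantile normalised signals alone, scaling by array medians, detection on all arrays or no filter, robust estimation with a variance trend, weights per array, a block for the replicate number, the unmoderated 2-group test of the methods' general statistics (their array p-values came from permutations), other ways to join probes, and leaving out each array. The number of arrays limits the precision.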

Additional observations from a re-analysis of the deposited data

Results flagged for a closer look

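Of 54 groups of 4 arrays checked for the genes named, 6 had an array far from the others (a gap to the nearest array that took up most of the group's range). Chance gives such a gap in about 1 group in 20. Among the members, EV replicate 4 read 7.38 on the dimmer C1s1 probe against 7.18 to 7.20 on the other EV arrays (gap over range 0.909), and L63RhoA replicate 3 read 4.41 on the Cd55 probe against 4.22 to 4.24 (0.871), at background level. For Fcna, EV replicate 2 read 5.66 against 5.79 to 5.80 (0.920). For Rela, L63RhoA replicate 1 read 10.15 against 10.51 to 10.56 (0.872), and for Ptx3, L63RhoA replicate 2 read 10.18 against 10.35 to 10.37 (0.918). For H2ac18, a histone gene close to Cfb in pattern, EV replicate 4 read 8.40 against 8.14 to 8.17 (0.887).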

How the results depend on the processing

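The Cfb difference of -1.03 was -0.63 both on the authors' table and without background correction, and between -1.12 and -0.93 with each array left out. Of the other members, 1 gene (C4b) passed instead of 0 with array weights, and 0 to 1 with an array left out. Of the other complement list, 2 genes (C8b and C8g) passed instead of 0 with array weights, and 0 to 2 with an array left out. No direction turned under any alternative for Cfb, C4b, C1s1, Serping1, C8b, C8g, Fcna or Colec12. The directions of the remaining tested complement genes were not followed over the alternatives. The count over all genes, 59 (32 higher, 27 lower), was 116 both on the authors' table and without background correction, 139 with robust estimation and a variance trend, 2098 with array weights, 18 with the replicate number as a block and 27 by the methods' unmoderated test. It ran from 17 to 1274 with an array left out, with 936 without EV replicate 3 and 1274 without L63RhoA replicate 1. Probes in place of genes gave 79. Arrays with the same replicate number did not deviate together (correlations of -0.099, -0.22, 0.27 and -0.23), so the numbers were not taken as pairs. With the block, 0 of the other members and 0 of the other complement genes passed. C8b and Colec12 were not tested with the filter that asked for detection on all 8 arrays. Signals of C1ra, Cd55 and Cd59a near background limit what can be said of them. Without background correction the differences of other dim genes shrank too, with Serping1 from -0.15 to -0.08 and Tnfrsf1a from -0.59 to -0.31.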

Other observations

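Cfb and C4b lie in the same stretch of chromosome 17, with 5 protein-coding genes between them. That stretch with 5 protein-coding genes on either side holds 17 genes, and 11 besides Cfb and C4b were tested. Of these, 0 passed at an adjusted p under 0.05 by limma (lowest adjusted p = 0.13), beside 0.706% of all genes. At an unadjusted p under 0.05 by limma there were 4, beside 24.4%. All 4 were higher in L63RhoA (Prrt1 0.33, Atf6b 0.54, Dxo 0.59 and Neu1 0.35). Over all genes 1145 were higher and 897 lower at that level. The Prrt1 probe was detected on only 4 arrays. Its EV log2 intensities of 4.35 to 4.53 were near background, so its difference is uncertain. Ppt2, Skiv2l and Ehmt2 were lower in L63RhoA, each at an unadjusted p above 0.05 by limma. The differences of the 11 genes ran from -0.31 to 0.59 on the log2 scale with a median of 0.20. None of the 11 was as far above EV as C4b. Cfb was selected on this contrast and is not ranked with them. Dxo, a decapping exonuclease between C4b and Cfb, differed by 0.59 (limma, adjusted p = 0.13), whereas Skiv2l, an RNA helicase beside it, differed by -0.29 (limma, adjusted p = 0.30). These neighbours were named after their values were seen.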
